A study of Mus musculus with 24 samples.

Results

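Malat1, Neat1, Kcnq1ot1, Meg3, Rian and Mirg are long noncoding RNAs that are known to stay largely in the nucleus, and their recovery with TET2 and with an antibody against 5-hydroxymethylcytosine (hm5C) in RNA was followed here in mouse embryonic stem cells. These 6 genes were chosen by name and matched by Ensembl gene ID, out of 53900 rows of the count tables, of which 53465 were Ensembl genes. The libraries were not made from nuclear fractions, so nuclear retention itself was not measured. The enzyme TET2 makes hm5C by oxidising 5-methylcytosine, and the series asked which RNAs it contacts and which carry the mark.

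The crosslinking and immunoprecipitation (CLIP) experiment used E14 mouse embryonic stem cells whose Tet2 carried a His-HA tag, in 2 clones named 65 and 75. These cells took up 4-thiouridine (500 µM, 4 hours) and were irradiated with UVB at 400 mJ/cm2. Each clone gave 2 CLIP input and 2 TET2 CLIP libraries. The RNA immunoprecipitation (RIP) experiment used cells with the strain label B6;129 and no treatment, and gave 2 RIP input and 2 hm5C RIP libraries, made with a small RNA kit. All cultures held LIF, 3 µM CHIR99021 (which inhibits GSK3) and 1 µM PD0325901 (which inhibits MEK). Each tagged line is 1 clone, and a CLIP from cells without the tag was not analysed here.

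Malat1 is an abundant RNA of nuclear speckles, where splicing factors gather, and Neat1 is the RNA around which paraspeckles assemble. Kcnq1ot1 is transcribed antisense to Kcnq1 from the paternal chromosome and silences genes of that imprinted domain in cis. Meg3, Rian and Mirg lie in this order along the maternally expressed strand of the Dlk1-Dio3 imprinted locus, and loss of their expression is a known mark of stem cell lines with abnormal imprinting there. Rian is a host of box C/D small nucleolar RNAs (snoRNAs) and Mirg is a host of microRNAs (miRNAs), so counts of these rows can include reads of the small RNAs they enclose.

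In the RefSeq annotation of GRCm38.p6, the assembly of build mm10, Malat1 spans chr19:5795690-5802672 and Neat1 chr19:5824708-5845480. Kcnq1ot1 spans chr7:143213111-143296547, wholly inside the interval of Kcnq1. On chromosome 12, Meg3 spans chr12:109540996-109571729, Rian chr12:109603945-109661716 and Mirg chr12:109734981-109749458. The interval of Rtl1, a retrotransposon-derived protein-coding gene of the opposite strand, overlaps the end of Meg3 and the start of Rian. Whether strand was used in counting is not given in the sources used here, so reads of Kcnq1ot1 and Kcnq1, and of Meg3 or Rian and Rtl1, cannot be told apart where these genes overlap.

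RefSeq placed 14 small RNA genes inside Rian (11 snoRNAs and 3 miRNAs), 10 miRNA genes inside Mirg and 2 inside Meg3. The mature sequences of the miRNAs with the most reads in the RIP libraries are printed 5′ to 3′ because they show what a small RNA library can hold from within a row named for a long RNA. They come from RefSeq (GRCm38.p6, chromosome 12, plus strand), and capitals mark the seed, bases 2 to 8. Mir341 and Mir370 lie in Rian and the others in Mirg.
mmu-miR-341-5p: cGGUCGGCcgaucgcucgguc
mmu-miR-341-3p: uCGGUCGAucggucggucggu
mmu-miR-370-5p: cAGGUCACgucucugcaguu
mmu-miR-370-3p: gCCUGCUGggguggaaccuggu
mmu-miR-541-5p: aAGGGAUUcugauguuggucacacu
mmu-miR-541-3p: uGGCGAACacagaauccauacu
mmu-miR-369-5p: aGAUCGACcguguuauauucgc
mmu-miR-369-3p: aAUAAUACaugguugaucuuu
mmu-miR-496a-5p: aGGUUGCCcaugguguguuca
mmu-miR-496a-3p: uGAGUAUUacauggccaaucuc
mmu-miR-412-5p: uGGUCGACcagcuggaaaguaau
mmu-miR-412-3p: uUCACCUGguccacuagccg
mmu-miR-453: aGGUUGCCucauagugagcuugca

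The last sequence, from Mir453 in Mirg, is shown because it is the only nested mature miRNA that shares a seed with another: GGUUGCC, also the seed of mmu-miR-496a-5p. Mir453 itself had no read in the RIP libraries. The tables count genes, not arms, so the arm a read came from is not known.

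Library totals ranged from 913002 to 4729463 counts in the CLIP inputs, 221060 to 453944 in TET2 CLIP, 4641963 to 4889943 in the RIP inputs and 1564014 to 2100187 in hm5C RIP. All 13 stem cell markers looked for, among them Pou5f1, Sox2 and Nanog, were counted in each CLIP group, and 3 of them (Klf2, Tdgf1 and Dppa5a) were lower in the input of clone 75 than in that of clone 65. A single row, Acsl6, took 55.2% to 60.6% of the counts in hm5C RIP and at most 0.255% in the RIP input, so levels in hm5C RIP depend on how libraries are scaled. Levels are given as CPM, counts scaled to a common library size after scaling by edgeR's TMM factors, and called means a Benjamini-Hochberg adjusted p under 0.05 in edgeR's quasi-likelihood test over all rows that passed a filter on low counts. The design text calls the libraries biological replicates, 2 a group, and levels are not compared between genes because exon lengths were not used here. Where a library is left out below, its group keeps a single library and the rows are filtered and scaled anew. A call lost there cannot be laid to that library alone.

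Together the 6 lncRNAs took 1.32% and 1.37% of the counts in the inputs of clone 65 and 0.718% and 0.769% in its TET2 CLIP libraries. In clone 75 they took 0.897% and 0.974% of the input and 0.919% and 0.949% of TET2 CLIP. Over both clones, Malat1 was lower and Neat1 higher in TET2 CLIP than in input, while the other 4 were not called. Over all 10334 rows tested, 8.99% were called higher and 5.83% lower, against 1 of the 6 lncRNAs in each direction, and the median log2 change was 0.22 for the 6 and -0.03 for all rows.

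Malat1 stood at 8720 and 8650 CPM in the inputs of clone 65, and at 5310 and 5410 CPM in its TET2 CLIP libraries. In clone 75 the inputs held 8100 and 8190 CPM and the TET2 CLIP libraries 5020 and 5520 CPM. All 4 TET2 CLIP libraries lay below all 4 inputs, and the clones were alike in both kinds of library. Over both clones Malat1 was 1.58-fold lower in TET2 CLIP, a log2 change of -0.66 (SE 0.127, adjusted p = 0.000223, edgeR quasi-likelihood test with Benjamini-Hochberg adjustment). It was lower in clone 65 by a log2 change of -0.70 (adjusted p = 0.00776, edgeR) and in clone 75 by -0.63 (adjusted p = 0.02, edgeR), and the difference of the clones was 0.07 with a 95% interval of -0.45 to 0.58. Without input replicate 1 or 2 of clone 65 the log2 change of that clone was -0.75 (adjusted p = 0.0557, edgeR) or -0.76 (adjusted p = 0.0507, edgeR). Without input replicate 2 or TET2 CLIP replicate 1 of clone 75 that of clone 75 was -0.65 (adjusted p = 0.116, edgeR) or -0.66 (adjusted p = 0.0818, edgeR), and with library size alone as the scale it was -0.45 (adjusted p = 0.117, edgeR).

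Neat1, which lies beside Malat1 on chromosome 19, moved the other way. Its level was 1550 and 1350 CPM in the inputs of clone 65 and 1640 and 1570 CPM in the TET2 CLIP libraries of that clone. In clone 75 the inputs held 961 and 986 CPM and the TET2 CLIP libraries 2070 and 2010 CPM. The groups did not overlap in either clone, but in clone 65 the highest input lay just under the lowest TET2 CLIP library, while in clone 75 they were far apart. Over both clones Neat1 was 1.53-fold higher in TET2 CLIP, a log2 change of 0.61 (SE 0.12, adjusted p = 0.000306, edgeR), which fell to 0.25 (adjusted p = 0.223, edgeR) when no filter on low counts was used.

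The change of Neat1 differed between the clones. It was 2.1-fold in clone 75 (log2 1.07, SE 0.169, adjusted p = 2.51e-05, edgeR), and in clone 65 the log2 change was 0.15 with a 95% interval of -0.20 to 0.50 (adjusted p = 0.658, edgeR). The difference of these log2 changes was 0.92 (SE 0.239, adjusted p = 0.0312, edgeR), the only lncRNA of the 6 called in this contrast, in which 2.54% of all rows were called. Both terms of the difference use the clone's own input, and Neat1 was lower in the input of clone 75, as given further on. Leaving out 1 input library at a time also filters and scales the rows anew and leaves 1 library in that group. The difference was then 0.83 and 1.03 without input replicate 1 and 2 of clone 65. It was 0.95 and 0.96 without input replicate 1 and 2 of clone 75. The call was not kept in these fits, which cannot be laid to the omitted library alone.

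**Figure D1:**
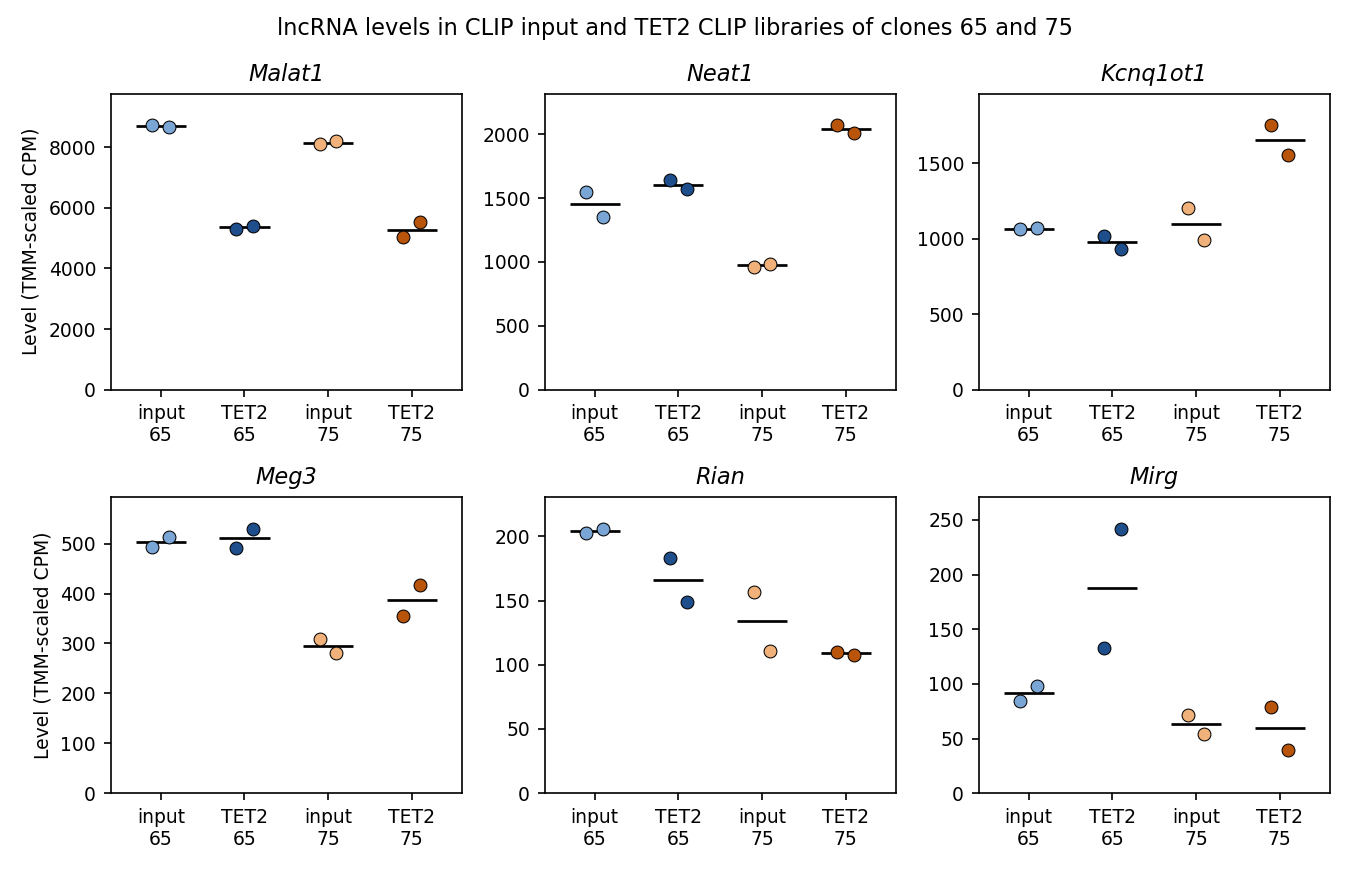
Level of each lncRNA in CPM (TMM-scaled, linear axis from 0) in the 8 libraries of the CLIP experiment; points are libraries and lines are means of the 2 libraries of a group. Malat1 was lower in TET2 CLIP in both clones, Neat1 was highest in TET2 CLIP of clone 75, and Meg3 and Rian were lower in the input of clone 75 than in that of clone 65.

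Because both RNAs were counted in the same libraries, the ratio of Malat1 to Neat1 needs no scaling between libraries. It was 5.63 and 6.43 in the inputs of clone 65 against 3.23 and 3.44 in TET2 CLIP, and 8.43 and 8.30 in the inputs of clone 75 against 2.42 and 2.74 in TET2 CLIP. Every TET2 CLIP library had a lower ratio than every input. The mean log2 ratio was 1.55 ± 0.23 in TET2 CLIP and 2.83 ± 0.29 in input (SD, n = 4 each), a difference of -1.28 (exact two-sided permutation test, p = 0.0286, the smallest that 4 against 4 libraries allow; adjusted over 3 ratios 0.0429). This ratio rests on the same counts as the results for Malat1 and Neat1.

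Kcnq1ot1 differed from input in clone 75. Its level was 1060 and 1070 CPM in the inputs of clone 65 and 1020 and 931 CPM in TET2 CLIP, and in clone 75 it was 1200 and 988 CPM in input and 1750 and 1550 CPM in TET2 CLIP. The TET2 CLIP libraries of clone 75 were the highest of the 8. In clone 75 the change was 1.52-fold (log2 0.60, SE 0.17, adjusted p = 0.0195, edgeR), in clone 65 the log2 change was -0.12 (95% interval -0.49 to 0.24, adjusted p = 0.742, edgeR), and the difference of the clones was 0.72 (SE 0.245, adjusted p = 0.124, edgeR). The call in clone 75 was lost in 6 of 13 alternatives, among them leaving out input replicate 2 of clone 75 (0.43, adjusted p = 0.464, edgeR), input replicate 1 of clone 75 (0.66, adjusted p = 0.0944), TET2 CLIP replicate 1 of clone 75 (0.41, adjusted p = 0.243) and input replicate 1 or 2 of clone 65 (both 0.56, adjusted p = 0.105 and 0.107). Kcnq1 itself, which the transcript overlaps, had 0 to 5 counts in any of these libraries.

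Meg3 was not called in TET2 CLIP of either clone. Its level was 493 and 514 CPM in the inputs and 492 and 530 CPM in TET2 CLIP of clone 65, and 309 and 280 CPM in the inputs and 356 and 418 CPM in TET2 CLIP of clone 75. In clone 65 input and TET2 CLIP overlapped, and in clone 75 both TET2 CLIP libraries lay above the inputs. The log2 change was 0.02 in clone 65 (95% interval -0.32 to 0.36) and 0.39 in clone 75 (0.04 to 0.73, adjusted p = 0.156, edgeR).

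Rian was not called either, on 27 to 49 counts a library in TET2 CLIP. Its level was 203 and 206 CPM in the inputs and 183 and 149 CPM in TET2 CLIP of clone 65, and 157 and 111 CPM in the inputs and 110 and 108 CPM in TET2 CLIP of clone 75. Within each clone the TET2 CLIP libraries lay below the inputs, in clone 75 by little. Over both clones the log2 change was -0.26 (95% interval -0.59 to 0.06, adjusted p = 0.296, edgeR).

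Mirg, the least counted of the 6 in TET2 CLIP, with 10 to 47 counts a library, was called higher in clone 65. Its level there was 84.5 and 98.2 CPM in input and 133 and 242 CPM in TET2 CLIP, and in clone 75 it was 71.2 and 54.5 CPM in input and 78.8 and 39.8 CPM in TET2 CLIP. The TET2 CLIP libraries of clone 65 lay above its inputs but differed widely from each other, and in clone 75 the groups overlapped. The log2 change was 1.04 in clone 65 (SE 0.26, adjusted p = 0.00605, edgeR) and 0.11 in clone 75 (95% interval -0.54 to 0.76). The difference of the clones was -0.93 (adjusted p = 0.254, edgeR). Without TET2 CLIP replicate 2 of clone 65 the change in that clone was 0.30 (adjusted p = 0.653, edgeR), without input replicate 1 of clone 65 it was 0.89 (adjusted p = 0.0722), and with library size alone it was 0.63 (adjusted p = 0.0806).

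In clone 65, 1 of the 6 lncRNAs was called higher (Mirg) and 1 lower (Malat1), where 8.21% and 2.87% of all rows were called. In clone 75, 2 were higher (Neat1 and Kcnq1ot1) and 1 lower (Malat1), where 6.22% and 3.93% of all rows were called. The median log2 change of the 6 was -0.05 in clone 65 and 0.25 in clone 75, beside -0.04 and 0.05 for all rows.

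**Figure D2:**
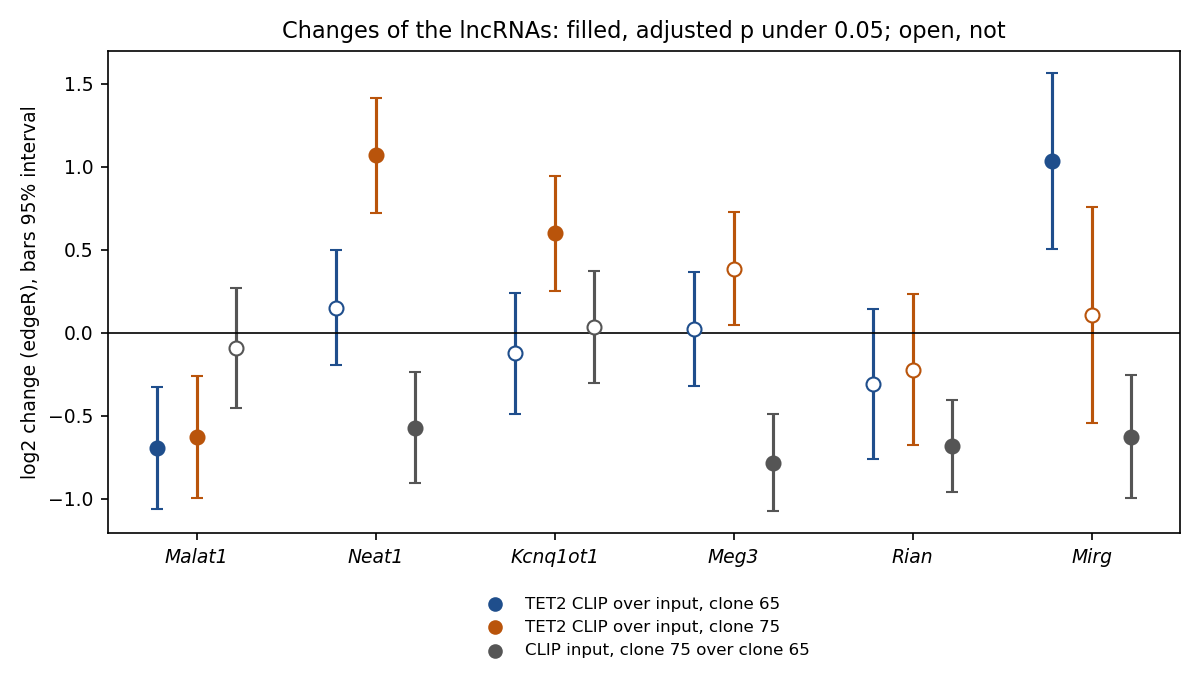
Log2 change of each lncRNA (edgeR, with 95% intervals) for TET2 CLIP over input in clone 65 and in clone 75 and for the input of clone 75 over that of clone 65; filled points are called and open points are not. Malat1 lay at -0.70 and -0.63 in the 2 clones, Neat1 at 0.15 and 1.07, and the inputs of clone 75 were lower for Neat1, Meg3, Rian and Mirg. The 3 contrasts share input libraries.

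In the Dlk1-Dio3 locus, the ratio of Meg3 to Rian differed between TET2 CLIP and input when libraries of both clones were permuted together. The ratio of Meg3 to Mirg was not tested. The ratio of Meg3 to Rian was 2.43 and 2.49 in the inputs of clone 65 against 2.70 and 3.55 in TET2 CLIP, and 1.97 and 2.52 in the inputs of clone 75 against 3.22 and 3.89 in TET2 CLIP. All 4 TET2 CLIP ratios lay above all 4 input ratios, the nearest being 2.70 and 2.52. The mean log2 ratio was 1.71 ± 0.22 in TET2 CLIP and 1.22 ± 0.17 in input (SD, n = 4 each), a difference of 0.49 (exact two-sided permutation test, p = 0.0286; adjusted over 3 ratios 0.0429). The ratio of Rian to Mirg differed by -0.71 on the log2 scale (exact two-sided permutation test, p = 0.143, n = 4 each), with overlapping groups. The two-sided p was taken as 2 times the smaller tail. With the fewer arrangements left when 1 library is dropped or libraries are permuted within each clone, no ratio could pass on that rule. The adjusted p of these permutation tests, 0.0571 and 0.0833 at the lowest, thus cannot tell whether the ratios hold.

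**Figure D3:**
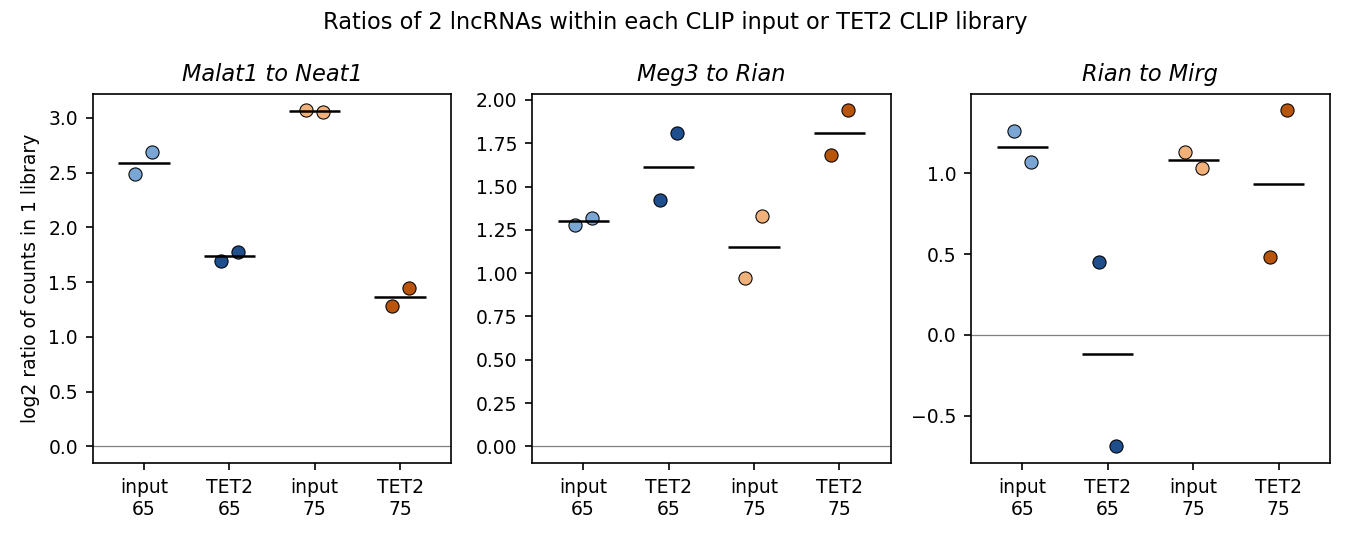
Log2 ratio of counts of Malat1 to Neat1, Meg3 to Rian and Rian to Mirg within each of the 8 libraries; points are libraries and lines are means of a group. The Malat1 to Neat1 ratio was lower, and the Meg3 to Rian ratio higher, in every TET2 CLIP library than in every input, while the Rian to Mirg ratio overlapped.

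Rtl1, which overlaps Meg3 and Rian on the other strand, was higher in TET2 CLIP. It stood at 202 and 205 CPM in the inputs and 354 and 396 CPM in TET2 CLIP of clone 65, and at 115 and 92.8 CPM in the inputs and 239 and 183 CPM in TET2 CLIP of clone 75. The log2 change over both clones was 1.00 (SE 0.127, adjusted p = 3.57e-07, edgeR), larger than that of either lncRNA it overlaps. Its part in the values of Meg3 and Rian was not tested.

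Before any recovery, the inputs of the clones differed in 4 of the 6 lncRNAs. Neat1, Meg3, Rian and Mirg were lower in clone 75 than in clone 65, none was higher, and 1.90% of all rows were called lower and 5.00% higher. The median log2 change of the 6 was -0.60, beside 0.01 for all rows. In bulk libraries, fewer cells that express an RNA and less of it per cell cannot be told apart.

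The 3 RNAs of the Dlk1-Dio3 locus were lower in the input of clone 75 by similar amounts. Meg3 fell from 503 ± 14.9 CPM in clone 65 to 294 ± 20.0 CPM in clone 75 (SD, n = 2 each), or by a log2 change of -0.78 (SE 0.144, adjusted p = 0.000434, edgeR). Rian fell from 204 ± 2.61 to 134 ± 32.2 CPM (SD, n = 2 each), or by a log2 change of -0.68 (SE 0.137, adjusted p = 0.00114, edgeR). Mirg fell from 91.3 ± 9.67 to 62.9 ± 11.8 CPM (SD, n = 2 each), or by a log2 change of -0.63 (SE 0.181, adjusted p = 0.0289, edgeR). In all 3 the inputs of clone 65 and clone 75 did not overlap, with 2 libraries each, and the share of all rows without overlap is not given here. Rtl1 of the same locus was lower as well, with a log2 change of -1.02 (adjusted p = 7.36e-06, edgeR), and Begain, the only other gene of a list of 5 from the locus that passed the count filter, was higher by 1.11 (adjusted p = 0.0387, edgeR).

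Neat1 was lower in the input of clone 75 by a log2 change of -0.57 (SE 0.164, adjusted p = 0.0282, edgeR). Malat1 and Kcnq1ot1 were not called in this contrast, with log2 changes of -0.09 (95% interval -0.45 to 0.27) and 0.03 (-0.30 to 0.37). All 4 calls ended when input replicate 1 or 2 of clone 65, or replicate 2 of clone 75, was left out. Without them, in that order, the log2 changes were -0.81, -0.75 and -0.71 for Meg3, -0.66, -0.63 and -0.38 for Rian, -0.69, -0.47 and -0.37 for Mirg and -0.47, -0.67 and -0.59 for Neat1, with adjusted p of 0.0559 or more (edgeR). The call of Neat1 also ended without replicate 1 of clone 75 (-0.57, adjusted p = 0.256, edgeR), and in DESeq2's Wald test 2 of the 4 calls, Neat1 and Meg3, were kept. The summed level of the 13 stem cell markers was 2650 to 2740 CPM in the inputs of clone 65 and 2210 to 2300 CPM in those of clone 75. That of 8 fibroblast markers was 1780 to 1900 CPM and 1360 CPM, with Dcn and Postn at 0 in the inputs of clone 65 and clone 75 in that order, and it was almost all Fn1 (1830 and 1350 CPM), which was not called (adjusted p = 0.115, edgeR). That of 5 trophoblast markers went the other way, from 189 to 249 CPM in clone 65 to 467 to 494 CPM in clone 75. It was mostly Gata3 (175 and 442 CPM), which was higher in the input of clone 75 (log2 1.35, adjusted p = 2.46e-08, edgeR). Tfap2c, the only other trophoblast marker tested, was at 38.4 and 32.1 CPM and was not called (log2 -0.22, adjusted p = 0.719, edgeR). The part of these in the difference between the clones was not tested.

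Other genes tied to these RNAs were read from lists chosen with earlier results of these data known. The share of all rows called over both clones was 8.99% higher and 5.83% lower, and no list was tested as a set. Of 15 other nuclear lncRNA genes 8 were tested in TET2 CLIP over both clones: Tsix and Xist, the antisense pair of the X inactivation centre, were higher (log2 1.09, adjusted p = 2.73e-08, and 0.63, adjusted p = 0.000478, edgeR), and Firre was lower (-0.66, adjusted p = 0.00547, edgeR). Counts of Tsix and Xist overlap on opposite strands, so those values cannot be assigned to either. Of 16 genes for paraspeckle proteins, which bind Neat1, 3 were higher and none lower: Ewsr1 (0.99), Taf15 (0.60) and Rbm14 (0.57), with a list median of 0.12. Rbm14 was the only 1 of the 16 whose change was called different between the clones (difference 1.19, adjusted p = 0.011, edgeR). The median of that difference over the 16 was -0.12.

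Of 5 genes of nuclear speckle scaffolds, where Malat1 resides, 1 was higher (Rbm25, 0.42) and none lower, beside 8.99% and 5.83% of all rows. Of 6 genes for enzymes that methylate, bind or cleave Malat1, 1 was higher over both clones: Elac2, the tRNA 3′ processing nuclease (0.89, adjusted p = 0.0286, edgeR). Mettl16, a methyltransferase of the same list, was lower in clone 65 (-1.34, adjusted p = 0.0219, edgeR), and its change differed between the clones by 1.79 (adjusted p = 0.024, edgeR). None of the 5 tested neighbours of Malat1 and Neat1 on chromosome 19 was called in either direction, nor was any of the 4 tested genes of the Kcnq1 domain. These are changes in the recovery of the genes' own RNA.

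The rows whose profile over the 8 CLIP libraries lay nearest to each lncRNA were found by the root mean square difference of centred log2 CPM. Nearest to Malat1 were Ezr (0.0819) and Ildr1 (0.0988), to Neat1 Angpt2 (0.148) and Gm15599 (0.149), and to Kcnq1ot1 Atxn1 (0.11) and Tars2 (0.122). Among the nearest to Meg3 was Lrrc8d (0.13), and nearest to Rian were Cyp51 (0.136) and Slc12a7 (0.139), and to Mirg Dtx1 (0.169) and Slc9a3r2 (0.177). Among the 6 themselves, Meg3 and Rian were the closest (0.303), then Neat1 and Kcnq1ot1 (0.334), and none of the 6 had another of them as its nearest row.

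In the RIP libraries the 6 lncRNAs were rare, with 0.00838% and 0.0089% of the counts in input and 0.00396% and 0.00457% in hm5C RIP. The row Acsl6 took 55.2% and 60.6% of the counts in hm5C RIP, so the smaller share there is not read as a change. Rian and Mirg were lower in hm5C RIP than in input. Of the 6 lncRNAs 4 passed the count filter, in a contrast where 33.0% of the 2081 tested rows were called higher and 18.9% lower. Malat1 and Rian were over the filter in all 4 libraries, Mirg in both inputs and 1 hm5C RIP library and Meg3 in the hm5C RIP libraries alone.

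Rian had 270 and 251 counts in the RIP inputs and 19 and 23 in hm5C RIP, or 65.4 and 53.4 CPM against 12.4 and 9.54 CPM. The groups lay far apart. The change was 5.46-fold lower (log2 -2.45, SE 0.315, adjusted p = 0.000708, edgeR), and the call held under all 11 alternatives, with log2 changes of -3.08 to -0.96. Mirg had 47 and 82 counts in input and 5 and 6 in hm5C RIP, or 11.4 and 17.4 CPM against 3.27 and 2.49 CPM. Mirg passed the filter through its inputs, so its 5.06-fold lower value (log2 -2.34, SE 0.498), again without overlap, is given as a description. With no count filter Mirg was called lower (log2 -2.97, adjusted p = 3.15e-06, edgeR). With Acsl6 dropped and library size alone as the scale, Mirg was not called (-0.87, adjusted p = 0.199, edgeR).

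Malat1 had 52 and 78 counts in input and 26 and 43 in hm5C RIP, or 12.6 and 16.6 CPM against 17.0 and 17.8 CPM, and was not called (log2 0.26, 95% interval -0.55 to 1.06, adjusted p = 0.585, edgeR). Meg3 had 7 and 5 counts in input and 5 and 10 in hm5C RIP, or 1.70 and 1.06 CPM against 3.27 and 4.15 CPM. Since Meg3 could be tested only because it was high in hm5C RIP, its log2 change of 1.44 is given as a description, and with no count filter it was 0.82 (95% interval -0.93 to 2.58, adjusted p = 0.716, edgeR). Neat1, with 7 and 11 counts in input and 2 and 11 in hm5C RIP, and Kcnq1ot1, with 6 and 8 against 5 and 3, did not pass the filter. With no filter their log2 changes were 0.02 (95% interval -1.61 to 1.64) for Neat1 and -0.21 (-2.18 to 1.76) for Kcnq1ot1.

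The size of the change in RIP depended on the row Acsl6. When that row was dropped and only library size set the scale, the median log2 change of all rows went from 0.15 to 1.99, and 1686 rows were called higher and 88 lower, against 686 and 394. Rian was then at -0.96 (adjusted p = 0.025, edgeR), Mirg at -0.87 (adjusted p = 0.199), Malat1 at 1.75 (adjusted p = 0.00131) and Meg3 at 2.94. Counted against Malat1 in the same library, Rian went from 519 and 322 counts per 100 of Malat1 in input to 73.1 and 53.5 in hm5C RIP, and Mirg from 90.4 and 105 to 19.2 and 14.0. These ratios need no scaling, and 2 libraries a group are too few for an exact test of them.

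**Figure D4:**
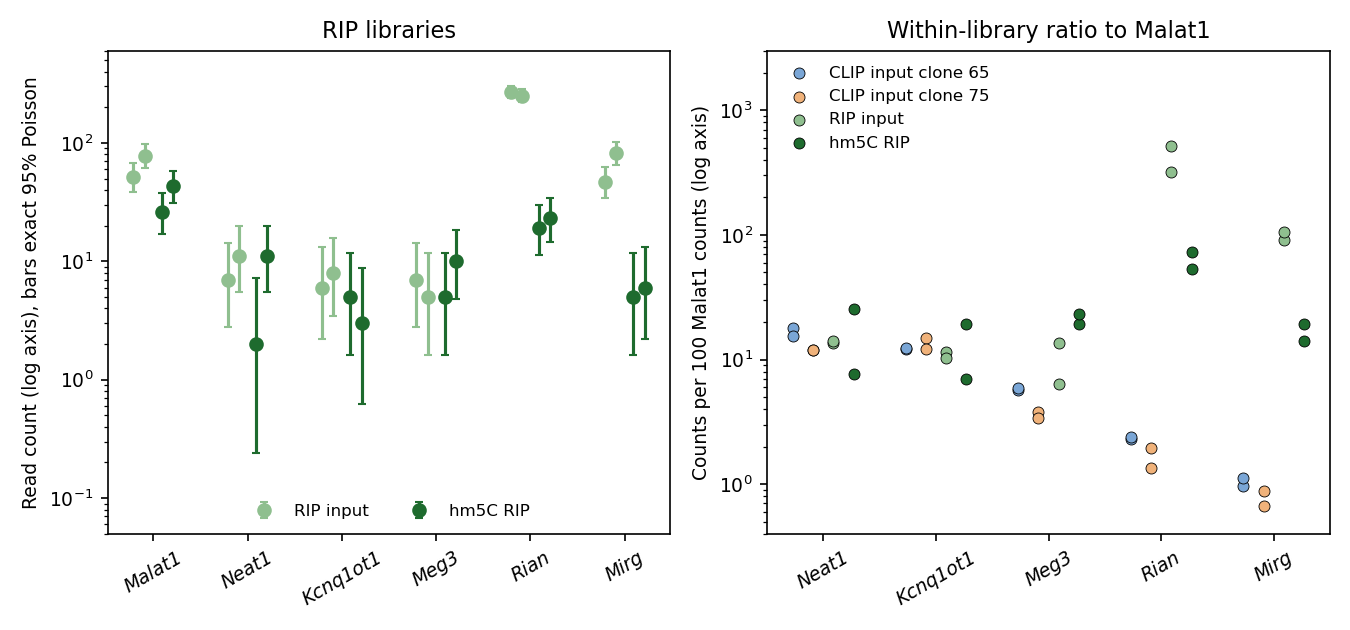
Left, read counts of the lncRNAs in the 4 RIP libraries on a log axis, with exact 95% Poisson intervals, which cover counting error only. Right, counts of each lncRNA per 100 counts of Malat1 in the same library, on a log axis, for CLIP inputs, RIP inputs and hm5C RIP. Rian and Mirg were lower in hm5C RIP than in RIP input, and in RIP input they were far higher against Malat1 than in CLIP input.

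The make-up of the 6 also differed between the inputs of the 2 experiments. In the CLIP inputs Rian had 1.36 to 2.38 counts and Mirg 0.666 to 1.13 counts per 100 of Malat1, where the RIP inputs had 322 and 519 for Rian and 90.4 and 105 for Mirg. Neat1 was near the same in both, at 11.9 to 17.8 in CLIP inputs and 13.5 and 14.1 in RIP inputs, as was Kcnq1ot1, at 12.1 to 14.8 and 10.3 and 11.5. Meg3 had 3.42 to 5.94 in CLIP inputs and 13.5 and 6.41 in RIP inputs, on 7 and 5 counts. Library kit, cell line and treatment differed together between the experiments and cannot be told apart.

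Some small RNA genes inside Rian and Mirg had more reads in the RIP libraries than the rows of their hosts: Mir341, Mir370 and DQ267102 in Rian and Mir541 and Mir369 in Mirg. In Mirg, Mir541 had 12377 and 14352 counts in RIP input and 1854 and 2236 in hm5C RIP. In Rian, the snoRNA DQ267102 had 2761 and 3179 counts in input and 608 and 914 in hm5C RIP, and Mir341 had 1054 and 1463 against 228 and 238. Over all 8 CLIP libraries together these rows had 2, 81 and 7 counts. The 2 miRNA genes inside Meg3 had no read in either experiment, and the tRNA-like mascRNA cut from the end of Malat1 had no row.

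Of the nested genes 9 were tested in RIP, where 18.9% of all rows were called lower and 33.0% higher, and 6 of these passed the count filter in all 4 libraries. Of those 6, Mir541, Mir369, Mir370, Mir341 and DQ267102 were called lower and Mir412 was not called. Mir541 had a log2 change of -1.50 (SE 0.276, adjusted p = 0.00266, edgeR) and Mir369, also in Mirg, -1.55 (adjusted p = 0.00385, edgeR). Inside Rian the log2 changes were -1.67 for Mir370, -1.20 for Mir341 and -0.79 for DQ267102, and that of Mir412 was -1.02. The snoRNA Gm24564, with 47 and 31 counts in input and 4 and 4 in hm5C RIP, and Mir496a, with 53 and 48 against 4 and 0, passed the filter through the inputs alone, so they could be tested only because they were higher there, and their values (-2.10 and -3.39) are given as a description. Mir154 (-1.68), over the filter in both inputs and 1 hm5C RIP library, was not called and is named beyond the 4 most counted of its host to complete the 9.

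With Acsl6 dropped and only library size as the scale, none of the 9 was called lower and 1, DQ267102, was called higher (log2 0.69, adjusted p = 0.0139, edgeR), Mir541 standing at -0.04 and Mir341 at 0.25. The calls of the nested small RNAs thus depended on the scale, which moves all rows by a similar amount. On the first scale the log2 change of Rian was below those of its 4 tested nested genes, a difference that was not tested. Reads of a nested small RNA that the counting gave to the host row cannot be told apart from reads of the long RNA.

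**Figure D5:**
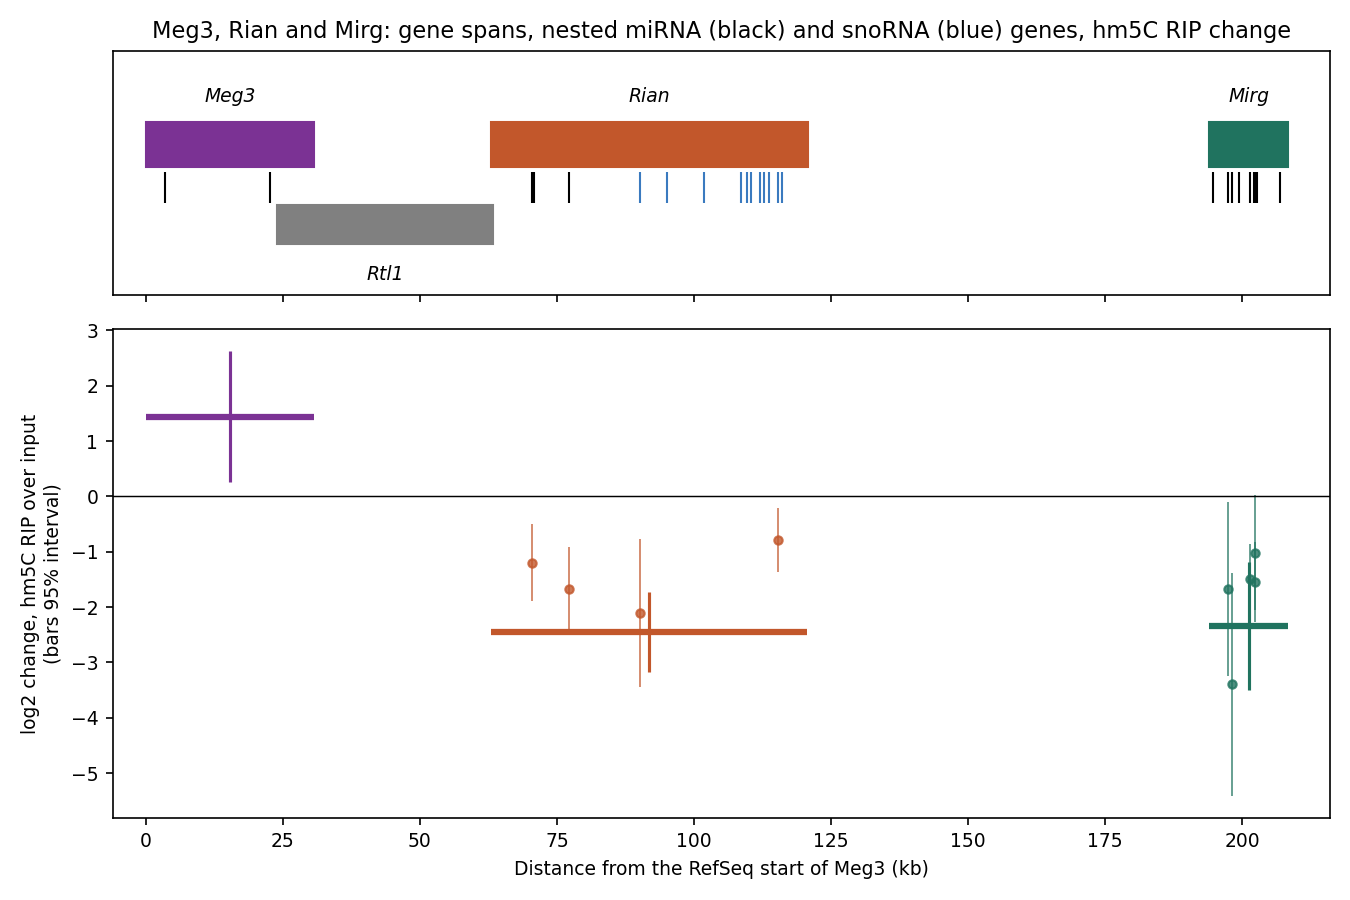
Top, gene spans of Meg3, Rian, Mirg and the overlapping Rtl1, with nested miRNA genes (black ticks) and snoRNA genes (blue ticks), by distance in kb from the RefSeq start of Meg3. Bottom, log2 change in hm5C RIP over input with 95% intervals for the lncRNAs (horizontal bars over the gene span) and their tested nested genes (points). Meg3 lay at 1.44 on few counts, Rian and Mirg lay at -2.45 and -2.34, and the nested genes lay between -3.39 and -0.79.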

How the data were processed

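The deposited values are raw read counts per gene, whole numbers whose sums differ between libraries. The submitters' processing notes name build mm10 and the tools STAR 2.5.3a, Bowtie2 2.2.6, cutadapt and UMI-tools. The counting tool, annotation and use of strand are not given in the sources used here. The tRNA fragment table was not used here.

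Counts were tested with edgeR 4.0.16 in R 4.3.3: TMM factors, filterByExpr (minimum count 10, minimum total 15), a robust quasi-likelihood fit and Benjamini-Hochberg adjustment over all tested rows, with 0.05 as the threshold. CLIP was fitted over 8 libraries with 4 group means and RIP over 4 libraries. The tests were checked on simulated counts. Ratios of a pair of lncRNAs per library (0.5 added to counts) were compared by exact permutation. Gene intervals and miRNA sequences came from RefSeq tables for GRCm38.p6.

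The lncRNAs, the gene lists, the 3 ratios and the rule for names were chosen with earlier results of these data known. All 6 lncRNAs are named throughout, with up to 4 genes of smallest p per list, the 2 nearest profiles and the 4 most counted nested genes per host. A result that this rule names is not reported here. The alternatives tried were a replicate block, scaling by library size or by DESeq2's size factors, no filter on counts, the Wald test of DESeq2 1.42.0, leaving out each library and, in RIP, dropping Acsl6. Replicates differed by more than counting noise, the chi-square divided by its degrees of freedom being 1.66 to 14.2.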

Additional observations from a re-analysis of the deposited data

Results flagged for a closer look

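Neat1 was flagged because its change in TET2 CLIP over input differed between clone 75 and clone 65, by 0.92 on the log2 scale (SE 0.239, adjusted p = 0.0312, edgeR quasi-likelihood test of the difference). The level rose from 974 ± 17.6 to 2040 ± 40.9 CPM in clone 75, and was 1450 ± 144 and 1610 ± 49.0 CPM in clone 65 (SD, n = 2 libraries each). Over 13 alternatives the difference ranged from 0.83 to 1.50, and the call was lost with the replicate block and without any 1 of the 4 input libraries.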

How the results depend on the processing

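Over all alternatives run, the lower recovery of Malat1 over both clones (-1.02 to -0.66), the higher recovery of Neat1 in clone 75 (0.83 to 1.25) and the lower recovery of Rian in hm5C RIP (-3.08 to -0.96, log2) kept their direction and their call. Of the other changes of single lncRNAs under an alternative, 45 fell short of the threshold, 17 newly passed it and 35 changed sign; the sign changes were all of lncRNAs that were not called. Of the counts of called lncRNAs and the ratios, 115 were unchanged within 1.5 times, 47 moved and 18 lost their call. These 18 were all ratios, without a library or permuted within each clone, where no ratio could pass whatever the data. Apart from the settings that test other rows or fewer libraries, the cause was not tested.

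Without a count filter the log2 change was -0.12 for Kcnq1ot1 and -0.15 for Meg3 over both clones, -0.32 for Neat1 and -0.45 for Meg3 in clone 65, -0.14 for Mirg in clone 75, -0.10 for Kcnq1ot1 between the inputs and -0.38 for Malat1 in RIP. The lncRNAs called were then 0 higher and 2 lower over both clones, 0 and 3 in clone 65, 1 higher in clone 75, 2 higher in the difference of the clones and 0 higher in RIP. Shares of all rows are not given without a filter, in the Wald test or with the replicate block, so counts there are not read as results. In RIP the only lncRNA called higher with the filter was Meg3. It passed the filter through hm5C RIP alone, so that call and its loss are a description. With library size alone the log2 change was -0.25 for Neat1 and -0.39 for Meg3 in clone 65 and -0.34 for Kcnq1ot1 between the inputs, with 0 higher and 3 lower in clone 65, 0 lower in clone 75 and 3 higher in the difference. That scale moved the median of all rows from -0.04 to -0.45 in clone 65, from 0.05 to 0.21 in clone 75, from 0.02 to 0.60 in the difference and from 0.01 to -0.34 between the inputs. It turned 929 rows called higher and 602 lower over both clones into 808 and 922, 848 and 297 in clone 65 into 684 and 1326, 643 and 406 in clone 75 into 872 and 264, and 517 and 196 between the inputs into 242 and 1559.

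DESeq2's Wald test gave -0.03 for Mirg in clone 75, and -0.00381 for Malat1 and -0.03 for Rian in the difference, with 2 lncRNAs higher in the difference, 2 lower between the inputs and 0 higher in RIP. Leaving out Acsl6 left 0 higher in RIP with TMM, and 2 higher (Malat1 and Meg3) and 1 lower (Rian) with library size alone. Meg3 is again a description, since it passed the filter through hm5C RIP alone. With the replicate block, Mirg was at -0.09 in clone 75, the difference of the clones for Neat1 was 0.91 (adjusted p = 0.0671, edgeR) with 0 lncRNAs called, and 0 were higher in RIP. Deviations of same-numbered libraries correlated at -0.0086, 0.015 and 0.0199. Noise within each library also lowers such a correlation, so it cannot tell whether same-numbered libraries were paired.

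Leaving out each library in turn gave a range of -0.001133 to 0.18 for Meg3 over both clones. In clone 65 the range was -0.05 to 0.20 for Neat1 and -0.26 to -0.001123 for Meg3. In clone 75 it was -0.68 to 0.35 for Mirg, and in the difference -0.19 to 0.32 for Rian. Kcnq1ot1 ranged from -0.12 to 0.17 between the inputs, and Malat1 from -0.26 to 0.21 in RIP. The lncRNAs called ranged from 1 to 2 in each direction over both clones, 0 to 1 in each direction in clone 65, 1 to 2 higher and 0 to 1 lower in clone 75, 0 to 2 in the difference, 0 to 4 lower between the inputs, and were 0 higher in RIP. The difference in the ratio of Malat1 to Neat1 ranged from -1.39 to -1.19 and that of Meg3 to Rian from 0.40 to 0.58. Permuted within each clone, these differences stayed at -1.28 and 0.49. The adjusted p of the permutation tests were 0.0571 to 0.0857 without a library and 0.0833 within clones. The exact two-sided p is 2 times the smaller tail, so no ratio could pass in these settings. In RIP, Neat1, Kcnq1ot1 and Meg3 had at most 11 counts a library, and the first 2 did not pass the count filter.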
